A study of Homo sapiens with 414 samples.

Results

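The 92 single cells of the human embryonic stem cell line H1 sequenced at 24 libraries per lane were ordered by the mitochondrial share of their RNA, which is the counts of the 13 mitochondrially encoded genes over all human counts of the cell. The 23 cells with the highest share were set against the 23 with the lowest, so 46 of the 92 cells entered the comparison, chosen by their mitochondrial counts. Undifferentiated H1 cells, at passages 20 to 30, grew in E8 medium on Matrigel and were caught one by one on a microfluidic chip, where full-length cDNA was made. No treatment was given, and both sets came from the same line. The series also held the same 92 cDNA libraries at 96 per lane, 91 cells of a second line, H9, at both depths, and bulk H1 cultures that were not analysed here. With 1 chip and no separate cultures named, each set was 1 sample, so no test was run and no p-value is given. Differences were read by size, and ranges over cells describe the spread between cells of that chip.

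Mitochondria carry their own circular genome, which is transcribed inside the organelle into ribosomal RNAs, transfer RNAs and the messages for a few subunits of the respiratory chain. All other mitochondrial proteins, including most respiratory subunits, the mitochondrial ribosome and the polymerase that reads the circle, are encoded in the nucleus and imported. A mitochondrial share is a ratio, so it is high where mitochondrial RNA is abundant and also where nuclear RNA is scarce. In single-cell work it is commonly used as a quality measure.

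The share ranged from 0.292% to 32.2% with a median of 5.37%. In the 23 highest cells it had a lowest value of 6.41%, a median of 7.87% and a highest value of 32.2%, and in the 23 lowest cells it had a lowest value of 0.292%, a median of 3.84% and a highest value of 4.48%. The first cell outside the high set stood at 6.24%, and the first outside the low set stood at 4.48% as well, so the sets are ends of a continuous spread. Only cells 61 and 26, at 32.2% and 28.99%, lay above 20%, and only cells 19 and 30, at 0.962% and 0.292%, lay below 1%. When these 4 were left out and the sets chosen anew from 88 cells, 21 cells of each set stayed, and the shares ran from 6.22% to 13.3% in the new high set and from 1.47% to 4.48% in the new low set. By the shares at 96 per lane, 23 of the 23 high cells and 22 of the 23 low cells were picked again. That repeat covers sequencing only, since the cDNA was the same.

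**Figure D1:**
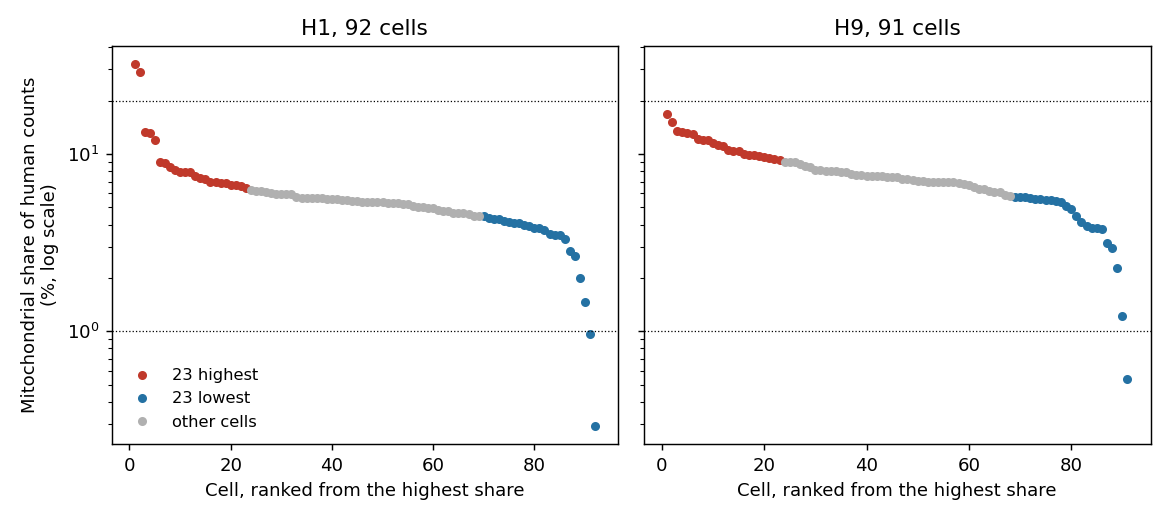
Mitochondrial share of human counts per cell (%, log scale) against the rank of the cell, with the 23 highest cells in red, the 23 lowest in blue and the others in grey, for H1 (left) and H9 (right). Dotted lines mark 20% and 1%. Most of the 92 H1 cells lie on a gentle slope around 5.37%, with 2 cells above the upper line and 2 below the lower one.

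The cells of both sets carried the RNA of undifferentiated cells. The summed level of 8 undifferentiated markers (POU5F1, NANOG, SOX2, LIN28A, L1TD1, TDGF1, DNMT3B and DPPA4) ranged from 6200 to 10989 counts scaled to 1000000 nuclear counts (CPM) in high-share cells, with a median of 7576, and from 5816 to 9382 CPM in low-share cells, with a median of 7508. Of 13 markers of early lineages, 0 reached 10 CPM in either set, and their summed median was 0 CPM in both sets. T, MIXL1, EOMES, GSC, SOX17, GATA4 and HAND1 had 0 counts in all 46 cells. Of 7 fibroblast markers, COL3A1, DCN and LUM were at 0 in all 46 cells, while THY1, which stem cells also express, and COL1A2 passed 10 CPM. Their summed level had a median of 221 CPM in high-share and 169 CPM in low-share cells, with overlapping ranges of 71.5 to 440 CPM and 58.02 to 694 CPM.

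The choice of cells used the mitochondrial counts, so the following levels are a description. As counts scaled to 1000000 human counts, MT-CO1, the largest catalytic subunit of cytochrome c oxidase, had a lowest value of 10458, a median of 23450 and a highest value of 84732 in high-share cells, against 681, 8024 and 15448 in low-share cells. MT-CYB, the mitochondrial subunit of complex III, had 6045, 7933 and 41362 in high-share cells, against 199, 3784 and 5766 in low-share cells. MT-ND4, a complex I subunit, had 6378, 8788 and 42830 in high-share cells, against 693, 4845 and 6145 in low-share cells. For MT-CYB and MT-ND4 the ranges did not overlap, and for MT-CO1 they did. Over the summed counts, the log2 ratio of high to low share lay between 1.42 for MT-ND3 and 1.91 for MT-CO1 in the 13 genes.

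The makeup of the mitochondrial RNA was not the same at both ends. MT-CO1 made up a median of 29.8% of mitochondrial counts in high-share cells and 24.0% in low-share cells, and over the 92 cells its part of the mitochondrial RNA had a rank correlation (Spearman's rho) of 0.32 with the share. MT-CO2 made up 11.4% in high-share and 13.7% in low-share cells, with a rho of -0.32. MT-ND1 made up 4.00% in high-share and 4.78% in low-share cells. H9 cells had the same order for these 3 genes. For MT-CO1 the H9 medians were 25.1% in high-share and 22.5% in low-share cells. They were 12.4% and 14.8% for MT-CO2, and 4.91% and 5.12% for MT-ND1. The rho values in H9 were smaller in size, at 0.12 for MT-CO1, -0.19 for MT-CO2 and -0.09 for MT-ND1. MT-ND4, MT-CO3, MT-ND2 and MT-ATP8 had opposite orders in H1 and H9. MT-ND4 made up 12.1% in high-share and 12.96% in low-share H1 cells, against 10.7% and 10.05% in H9. In cell 30, the cell with the lowest share, MT-ND4 made up 23.8% of only 16864 mitochondrial counts. A part of a whole moves with the other parts, and MT-CO1 has the largest one.

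Counts of the synthetic spike-in RNA gave a second scale, although both kinds of count also enter the share that chose the cells. Mitochondrial counts per spike-in count had a lowest value of 0.493, a median of 1.81 and a highest value of 3.47 in high-share cells, against 0.0240, 0.684 and 1.52 in low-share cells, a 2.65-fold ratio of medians. Nuclear-gene counts per spike-in count had 2.89, 22.7 and 42.4 in high-share cells, against 7.09, 19.4 and 33.7 in low-share cells, a 1.17-fold ratio of medians with wide overlap. Over the 92 cells the share had a rho of 0.70 with mitochondrial and of 0.06 with nuclear counts per spike-in count. In H9 the medians were 2.21 in high-share and 0.998 in low-share cells for mitochondrial counts per spike-in count, and 17.1 in high-share and 20.2 in low-share cells for nuclear ones, which for the nuclear counts is the other direction from H1. The amount of spike-in per cell is not given in the sources used here, and both measures assume that it was even. Fewer nuclear counts were sequenced from high-share cells, with a median of 3269490, than from low-share cells, with a median of 4073170.

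High-share H1 cells still had slightly more nuclear genes read. A rounded count of at least 1 was found for a median of 11315 genes in high-share cells, against 11032 in low-share cells, with ranges of 9595 to 11762 and 9767 to 11279. After each cell was thinned to 1000000 nuclear counts the medians were 10439 in high-share and 10014 in low-share cells. The ranges overlapped again, at 8153 to 11079 and 7792 to 10685. In H9 the medians were nearly equal, at 10691 genes in high-share and 10667 in low-share cells. After thinning, the H9 medians were 9857 in high-share and 9821 in low-share cells.

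**Figure D2:**
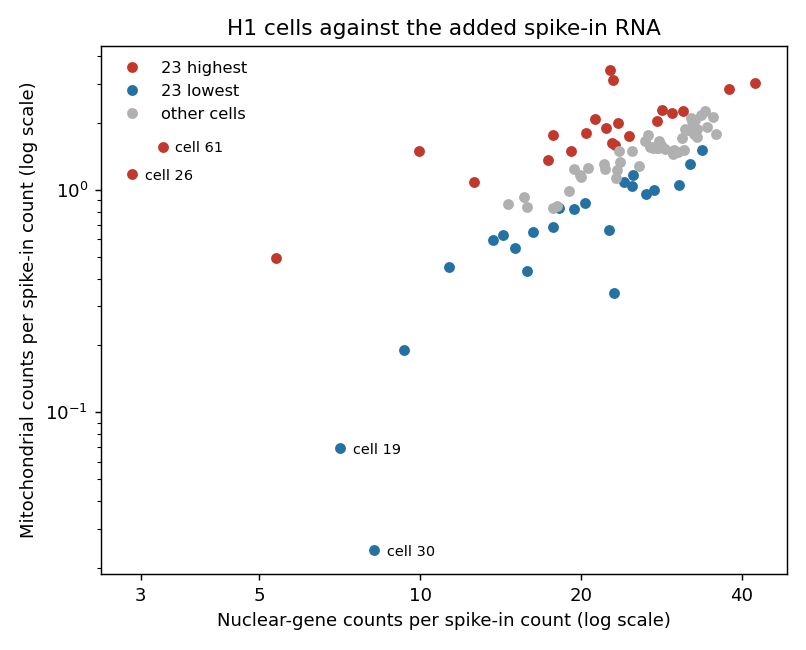
Mitochondrial counts per spike-in count against nuclear-gene counts per spike-in count in each of the 92 H1 cells (both axes on log scales), with the 23 highest-share cells in red, the 23 lowest in blue and the others in grey. At like nuclear values, high-share cells must lie above low-share cells, since the share chose them. Cells 61 and 26 lie at the far left, at 3.30 and 2.89 nuclear counts per spike-in count. Their mitochondrial counts per spike-in count, 1.57 and 1.18, lie within the range of the other cells.

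The 4 cells beyond the limits of 1% and 20% all lay near the low end of nuclear counts per spike-in count, but not alone. Cell 49, with a share of 8.41%, had 5.37 nuclear counts per spike-in count, fewer than cells 19 and 30. Cells 61 and 26 had the 2 lowest nuclear counts per spike-in count of all 92 cells, at 3.30 and 2.89, and spike-in made up 17.0% and 19.7% of their counts. Their mitochondrial counts per spike-in count, 1.57 and 1.18, ranked only 35 and 60 from the top of the 92 cells. Per spike-in count, their high share stood beside low nuclear and mid-range mitochondrial values. As sequenced, cell 61 had 3574030 nuclear and 1697770 mitochondrial counts, and cell 26 had 2526270 and 1031330. The medians over the 92 cells were 3462760 nuclear and 201874 mitochondrial counts. The cause of the high share was not tested. Cells 19 and 30 also had few nuclear counts per spike-in count, 7.09 and 8.20, at ranks 89 and 88 of 92. Their mitochondrial counts per spike-in count, 0.0688 and 0.0240, were the 2 lowest of all.

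The nuclear RNA of cells 61 and 26 held little of several abundant cytosolic housekeeping messages. EEF1A1, a translation elongation factor and one of the most abundant messages of these cells, stood at 3339 and 4308 CPM in cells 61 and 26, against 10810 to 24330 CPM in the other 90 cells. ACTB, cytoplasmic actin, stood at 1321 and 1203 CPM in cells 61 and 26, against 4215 to 14569 CPM in the others. GAPDH, a glycolytic enzyme, stood at 174 and 927 CPM in the same 2 cells, against 3822 to 8946 CPM in the others. LDHB, lactate dehydrogenase, had 1061 and 403 CPM in the 2 cells, against 2222 to 5048 CPM elsewhere. In both cells these 4 messages lay below every one of the other 90 cells.

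The same was seen over whole lists. The summed level of 79 cytosolic ribosomal protein genes was 18830 and 31452 CPM in cells 61 and 26, against 44027 to 78627 CPM in the 88 cells with shares of 1% to 20%. The 31 proteasome genes had 3019 and 3598 CPM in the 2 cells, against 8949 to 15023 CPM in the 88 cells. The 78 nuclear genes of the respiratory chain had 5228 and 9983 CPM in the 2 cells, against 11714 to 17560 CPM in the 88. In all, 13 of 30 lists lay below the range of the 88 cells in both cells. Besides those 3, these were the mitochondrial ribosome, mitochondrial import and chaperones, the citric acid cycle, glycolysis, p53 targets and apoptosis, heat shock, oxidative stress, translation factors, housekeeping genes, and actin and YAP targets.

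Other messages were higher in cells 61 and 26 than in each of the other 90 cells. HSP90B1, a chaperone of the endoplasmic reticulum, stood at 3210 and 3891 CPM in the 2 cells, against 421 to 2210 CPM in the others. The amino acid transporters SLC38A1 and SLC38A2 also stood above, SLC38A1 at 2516 and 2195 CPM in the 2 cells, against 50.4 to 1610 CPM. For SLC38A2 the values were 3550 and 3033 CPM in the 2 cells, against 341 to 2725 CPM. GJA1, the gap junction protein connexin 43, had 1849 and 1781 CPM in the 2 cells, against 11.8 to 965 CPM. AASS, which begins lysine breakdown inside mitochondria, had 10640 and 5983 CPM, against 65.4 to 4472 CPM, and TERF1, a telomere-binding protein, had 3234 and 6849 CPM, against 796 to 3160 CPM. Of 4021 nuclear genes at 50 CPM or more over all cells, 331 (8.23%) lay below every other cell in both of these cells and 86 (2.14%) above every other cell. These genes were named after their values had been seen, and each of the cells is 1 library with no repeat of the cell.

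Cells 19 and 30 differed from that pattern. GAPDH, ACTB and EEF1A1 were not among the genes below the other cells there, and among the 30 lists only the MTRNR2L genes lay below the range of the 88 cells in both. Single ones of them left that range elsewhere, such as cell 30 at 20543 CPM for heat shock and 1778 CPM for p53 targets, against 9288 to 18946 CPM and 1884 to 4670 CPM in the 88 cells, and cell 19 at 11799 CPM for oxidative stress, against 4555 to 10887 CPM. Of the 4021 genes, 171 (4.25%) lay below and 25 (0.622%) above every other cell in both. Above were H3F3A, a replication-independent histone H3 gene, with 1313 and 1248 CPM in cells 19 and 30, against 407 to 1151 CPM in the others, and DNMT3A, a DNA methyltransferase, with 1081 and 1037 CPM, against 111 to 815 CPM. Below was PHB, the inner-membrane protein prohibitin, with 125 and 86.2 CPM in cells 19 and 30, against 149 to 540 CPM in the others.

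**Figure D3:**
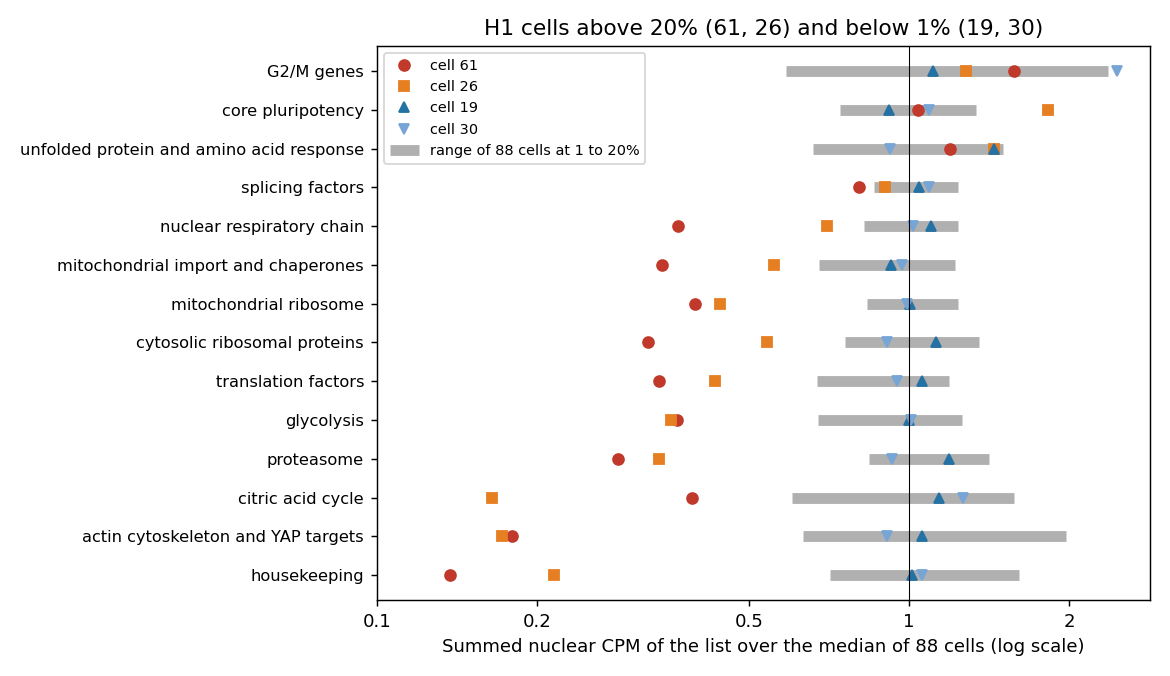
Summed nuclear CPM of 14 gene lists in cells 61 and 26 (shares above 20%, red and orange) and in cells 19 and 30 (below 1%, dark and light blue), each over the median of the 88 cells with shares of 1% to 20% (log scale), with the range of those 88 cells as a grey bar. Cells 61 and 26 lie left of the bar for 10 of the 14 lists shown, while cells 19 and 30 lie inside it, except that cell 30 lies just above it for G2/M genes; in lists not drawn, single ones of these cells also left it.

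Across the whole table, the 2 sets of 23 cells were compared by the ratio of their summed counts as nuclear CPM, with mitochondrial rows left out of the totals. A gene was called at a difference of at least 1.5-fold, where at least one set reached 10 CPM. Of 9120 such genes, 2147 (23.5%) were at least 1.5-fold higher and 1371 (15%) at least 1.5-fold lower in high-share cells, and the median log2 ratio was 0.04. The split depended on the scaling. With TMM factors there were 1761 higher and 1736 lower genes at a median of -0.08, and with median-of-ratios size factors per cell 1341 higher and 2358 lower at a median of -0.22. Ratios below are to be read against the median of all genes. Without the 4 cells beyond the limits, 1644 genes were higher and 1155 lower with the sets chosen anew. Of all 19084 nuclear genes, 0 had ranges over cells that did not overlap between the sets.

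Part of these calls came from single cells. Cell 61 was the highest cell of the high set for 16.0% of the 2147 higher genes, against 9.52% of all 9120 genes, and cell 26 for 14.1%, against 9.76%. In the low set, cell 19 was the highest cell for 20.9% of the 1371 lower genes, against 9.33% of all, and cell 30 for 15.1%, against 8.44%. A stricter rule asked for 50 CPM, reads in at least 18 of the 23 cells of the higher set, medians over cells also 1.5-fold apart, and the same call without the 4 cells. Of 4557 genes at 50 CPM, 6.08% were higher under it, 270 genes besides the MTRNR2L family described below, and 154 (3.38%) were lower.

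Most genes with the largest ratios under that rule still drew a large part of their counts from 1 cell. MBNL1, a splicing regulator, summed to 54.2 CPM in high-share cells and 3.69 CPM in low-share cells, but 61.8% of its high-share counts came from 1 cell. Its lowest, median and highest values were 0, 11.2 and 454 CPM in high-share cells, against 0, 1.83 and 45.4 CPM in low-share cells. RRBP1, a ribosome receptor of the endoplasmic reticulum, summed to 69.1 CPM in high-share and 4.99 CPM in low-share cells, a log2 ratio of 3.79, with 40.97% of its high-share counts from 1 cell. Over the 15 higher genes with the largest ratios, the top cell gave between 16.3% (PMEL) and 67.5% (EXT2) of the high-share counts. PMEL, the melanosome amyloid protein, was the least uneven, with 0, 87.8 and 270 CPM in high-share cells, against 0.431, 11.9 and 146 CPM in low-share cells. The others were TYW1, MGAT4A, OLFML3, CYBRD1, TACC2, RAVER2, SDC1, ZNF816, ELMOD2, ZNFX1 and ATAD2, at log2 ratios of 1.84 to 3.00. In H9, 10 of these 15 genes had a ratio of the opposite sign, among them MBNL1 at -0.40, TACC2 at -1.41, RAVER2 at -1.69, ELMOD2 at -0.70, PMEL at -0.17 and ZNFX1 at -1.15. MGAT4A at 1.45, CYBRD1 at 1.19 and EXT2 at 1.26 kept theirs, as did RRBP1 at 0.38 and OLFML3 at 0.35.

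The same held at the lower end. HDAC9, a histone deacetylase, summed to 4.87 CPM in high-share and 60.6 CPM in low-share cells, with 58.1% of the low-share counts from 1 cell. FASTKD5, which processes mitochondrial messages that are not flanked by transfer RNAs, had 30.2% of its low-share counts from 1 cell. It had 0, 31.5 and 148 CPM in high-share cells, against 0.439, 89.9 and 703 CPM in low-share cells, a log2 ratio of -1.61 that was -1.19 without the 4 cells and -0.84 in H9. The other 13 genes of this end were ZNF30, CAMK2D, SLC37A4, KLF3, WDFY3, RRP9, RBM23, HSDL1, C5orf44, POLE2, ZNF302, TNIK and NHEJ1, with log2 ratios between -2.70 for ZNF30 and -1.58 for NHEJ1. In H9, 6 of the 15 genes had a ratio above 0, with ZNF30 at 0.58, SLC37A4 at 0.04, WDFY3 at 0.98, RRP9 at 0.42, HSDL1 at 0.35 and ZNF302 at 0.10.

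The ratio depended on the level of a gene. Over all genes its median was 0.12 at 10 to 50 CPM, -0.0045 at 50 to 200 CPM, -0.11 at 200 to 1000 CPM and -0.15 from 1000 CPM up, so the lists of abundant genes below are to be read beside those values. Without the 4 cells the medians were 0.09, -0.0040, -0.05 and -0.06.

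Nuclear genes whose products work in mitochondria mostly had ratios a little below 0 in H1, and in H9 most of these lists had medians near 0. Of the 77 measured nuclear genes of the respiratory chain, which supply most subunits of complexes I to V, 2 were called higher and 3 lower, and 53 had a ratio below 0. Their median log2 ratio was -0.15, against 0.04 for all genes, and was -0.08 without the 4 cells and -0.03 in H9. Both counts of called genes were small beside the 23.5% of all genes called higher and the 15% called lower. Subunits of succinate dehydrogenase were called in both directions, but not firmly. SDHB, its iron-sulfur subunit, had 0.533, 76.6 and 169 CPM in high-share cells, against 2.996, 134 and 232 CPM in low-share cells, a log2 ratio of -0.72 that was -0.35 without the 4 cells. SDHC, a membrane anchor, was at 11.7 CPM in high-share and 18.8 CPM in low-share cells, with nearly equal medians of 7.86 CPM in high-share and 8.06 CPM in low-share cells. SDHA, the flavoprotein, was at 137 CPM in high-share and 87.6 CPM in low-share cells, with medians of 87.8 CPM in high-share and 81.6 CPM in low-share cells, and its log2 ratio of 0.64 was 0.34 without the 4 cells and 0.01 in H9. COX6A1, a subunit of cytochrome c oxidase, was the other gene called higher, at 376 CPM in high-share and 248 CPM in low-share cells. NDUFS3, a core complex I subunit, was at 45.4 CPM in high-share and 73.3 CPM in low-share cells, a log2 ratio of -0.69 that was -0.49, short of the limit, without the 4 cells and 0.27 in H9.

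The mitochondrial ribosome, which translates the 13 messages, had 72 measured genes, of which 1 was called higher and 6 lower, with a median log2 ratio of -0.16, which was -0.07 both without the 4 cells and in H9. MRPL35 was the gene called higher, at 49.2 CPM in high-share and 23.1 CPM in low-share cells, and MRPL12 and MRPL2 had ratios of -1.04, against 0.11 and 0.36 in H9. Of 34 genes of mitochondrial import and chaperones, 0 were called higher and 2, TIMM9 and TIMM17B of the inner-membrane import machinery, lower, with a median of -0.13 in H1 and -0.05 in H9. Of 15 genes that copy and transcribe mitochondrial DNA, 0 were called higher and 4 lower, where 15% of all genes were called lower, with a median of -0.25 that was -0.14 without the 4 cells and -0.05 in H9. These were C10orf2, the helicase Twinkle, TOP1MT, the mitochondrial topoisomerase, TEFM, an elongation factor, and MTERF, whose medians of 31.4 CPM in high-share and 31.3 CPM in low-share cells were alike. C10orf2 summed to 8.24 CPM in high-share and 25.3 CPM in low-share cells, but its medians, 3.20 CPM in high-share and 1.77 CPM in low-share cells, ran the other way. Of 20 genes of mitochondrial RNA processing and turnover, 0 were called higher and 5 lower at a median of -0.21, which was -0.03 without the 4 cells and 0.05 in H9.

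The citric acid cycle, which oxidises acetyl units in the mitochondrial matrix, had the lowest median of the nuclear mitochondrial lists in H1, at -0.27, -0.24 without the 4 cells and, where 2 other such lists were lower, at -0.21 in H9. Of its 17 measured genes 14 had ratios below 0. CS, citrate synthase, had 8.82, 89.1 and 183 CPM in high-share cells, against 5.29, 162 and 360 CPM in low-share cells, a log2 ratio of -0.74. FH, fumarase, had 1.19, 73.5 and 200 CPM in high-share cells, against 1.496, 124 and 292.8 CPM in low-share cells, a log2 ratio of -1.01. In H9 the ratios were -0.62 for CS and -0.66 for FH. OGDH, a subunit of the 2-oxoglutarate dehydrogenase complex, ran the other way, with 5.46, 29.9 and 256.4 CPM in high-share cells, against 0, 15.9 and 55.8 CPM in low-share cells, and log2 ratios of 1.57 in H1 and 0.77 in H9. IDH3B, a subunit of isocitrate dehydrogenase, was also called higher, at 123 CPM in high-share and 55.2 CPM in low-share cells, a log2 ratio of 1.16 in H1 that was -0.18 in H9. All these ranges overlapped between the sets.

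Regulators of mitochondrial number showed no shared direction in H1. Of 8 measured biogenesis regulators, GABPA, a subunit of a nuclear respiratory factor, was called higher at 83.8 CPM in high-share and 40.1 CPM in low-share cells, and 0 were called lower. The list's median of 0.07 became -0.06 without the cells beyond the limits, -0.04 with TMM factors and -0.19 with size factors. In H9, 7 of 9 measured regulators had ratios below 0, and both the list's median and GABPA were at -0.37. Of 16 genes of mitophagy, fission and fusion, 1 was called higher and 1 lower, beside 23.5% and 15% of all genes. Their median was -0.14 in H1, with 10 genes below 0, but 0.03 without the cells beyond the limits. In H9 the median was -0.22, with 11 of 16 below 0. PARK2, the ubiquitin ligase parkin, was low but even, with 4.51, 15.9 and 29.02 CPM in high-share cells, against 1.38, 7.49 and 15.8 CPM in low-share cells, a log2 ratio of 1.07 and of 0.77 in H9. It was read in 23 of 23 cells of each set and had a rho of 0.58 with the share. PARK2 had no matched transcript, so its repeat content, a measure described below, is not known.

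**Figure D4:**
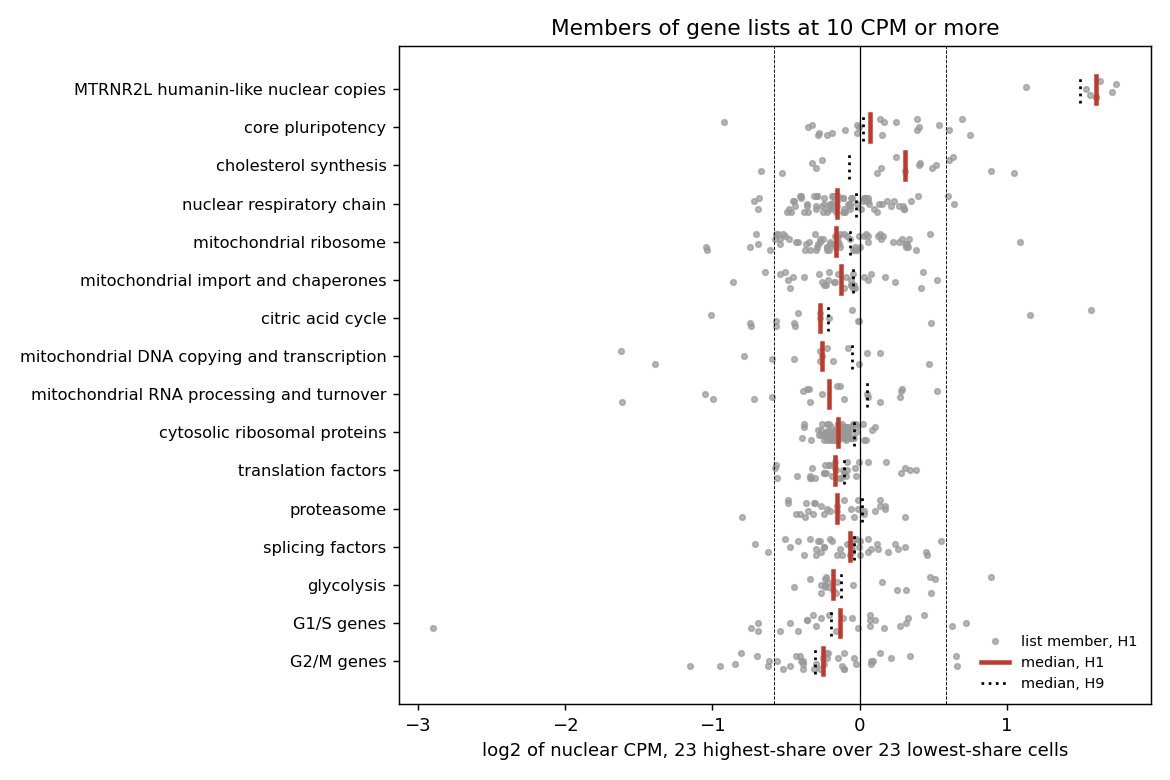
log2 ratio of nuclear CPM, high-share over low-share H1 cells, for each member at 10 CPM or more of 16 gene lists (grey points), with the H1 median (red bar) and the H9 median (dotted black bar). Dashed lines mark 1.5-fold. The MTRNR2L genes stand alone near 1.60, and the other 15 H1 medians lie between -0.27 and 0.31.

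Genes of general growth lay below the median of all genes, close to that of the abundant ones. Of 79 cytosolic ribosomal protein genes, 0 passed the limit either way and 74 had ratios below 0, at a median log2 ratio of -0.15 that was -0.07 without the 4 cells and -0.04 in H9. Translation factors (36 genes, 0 called, median -0.17) and the proteasome (31 genes, 0 called higher and 1 lower, median -0.16) were alike. Of 21 glycolytic genes 1 was called, PDK1, a kinase that restrains pyruvate entry into mitochondria, at 199 CPM in high-share and 107 CPM in low-share cells. Its medians over cells, 71.3 CPM in high-share and 82.8 CPM in low-share cells, ran the other way, and its log2 ratio of 0.89 was 0.01 without the 4 cells. Of 43 splicing factors 0 were called higher and 2 lower, HNRNPK at 87.5, 303 and 559 CPM in high-share cells, against 147, 492 and 991 CPM in low-share cells, and U2AF1 at a log2 ratio of -0.62. The summed level of the splicing list had a rho of -0.42 with the share in H1 and of -0.33 in H9, over cells that differ in depth.

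Cell cycle and stress genes gave few even differences. Of 39 G2/M genes 2 were called higher and 7 lower, at a median of -0.25 in H1 and -0.30 in H9. TTK, a spindle checkpoint kinase, had 3.26, 145 and 1053 CPM in high-share cells, against 7.02, 271.9 and 1328 CPM in low-share cells, with log2 ratios of -1.15 in H1 and -1.04 in H9. The counting intervals (exact Poisson, 95%) of its summed levels were 177 to 183 CPM in high-share and 396 to 404 CPM in low-share cells, which cover counting error only and are far narrower than the spread over cells. The summed G2/M level per cell had a rho of only 0.01 with the share. Of 28 G1/S genes 2 were called higher and 4 lower. In the list for unfolded proteins and amino acid shortage, 4 of 25 genes were called higher and 6 lower, beside 23.5% and 15% of all genes. HSPA5, the main chaperone of the endoplasmic reticulum, had 356, 831 and 2193 CPM in high-share cells, against 3.80, 501 and 818 CPM in low-share cells, a log2 ratio of 1.14 in H1 that was -0.02 in H9.

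Of 22 p53 targets and apoptosis genes 5 were called higher and 4 lower, of 9 immediate-early genes 1 and 1, of 14 heat shock genes 1 and 1, of 15 hypoxia genes 3 and 3, and of 23 oxidative stress genes 0 and 2. Over all genes 23.5% were called higher and 15% lower, so these counts are not a result about the lists. Among the immediate-early genes, EGR1 was called higher at a log2 ratio of 0.79, which was -0.0038 without the 4 cells.

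Pluripotency genes did not separate the sets. POU5F1 had 91.7, 167 and 353 CPM in high-share cells, against 85.4, 152 and 306 CPM in low-share cells. NANOG had 22.99, 190 and 396 CPM in high-share cells, against 56.9, 193 and 572 CPM in low-share cells. SOX2 had 16.3, 59.9 and 101 CPM in high-share cells, against 7.73, 40.4 and 96.3 CPM in low-share cells. Of the 22 measured genes of the list, 3 were called higher and 1 lower, and the list's median of 0.07 became -0.04 with TMM factors and -0.19 with size factors. CDH1, E-cadherin, was the largest ratio above 0, at 270 CPM in high-share and 161 CPM in low-share cells. TERF1 had 1148, 2153 and 6849 CPM in high-share cells, against 796, 1696 and 2852 CPM in low-share cells, with the log2 ratio at 0.69 for H1 and 0.22 for H9. Cholesterol synthesis genes had a median of 0.31 in H1, with 4 of 17 called higher and 1 lower, and of -0.08 in H9. Since 23.5% of all genes were called higher and 15% lower, the called counts of both lists are not a result about them.

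The nuclear genes that followed the share most closely were those of the MTRNR2L family, nuclear copies of the part of the mitochondrial genome that encodes the large ribosomal RNA and, within it, the short peptide humanin. All 8 family members at 10 CPM or more were called higher in high-share cells, with log2 ratios from 1.13 (MTRNR2L5) to 1.74 (MTRNR2L6), and the 6 highest rho values among nuclear genes at 50 CPM or more were theirs, from 0.79 to 0.84. MTRNR2L8 had 4253, 5947 and 31493 CPM in high-share cells, against 257.5, 2668 and 4676 CPM in low-share cells, with a rho of 0.84 in H1 and 0.93 in H9. The list's median log2 ratio of 1.60 was 0.95 without the 4 cells and 1.49 in H9.

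Their reading frames are shown because they show how alike the family is to mitochondrial ribosomal RNA. The first line is the humanin frame inside MT-RNR2, and in the others capitals mark bases that differ from it (GENCODE release 29 transcripts, annotated on GRCh38).
MT-RNR2: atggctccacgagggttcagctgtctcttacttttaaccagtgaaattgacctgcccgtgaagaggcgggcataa
MTRNR2L8: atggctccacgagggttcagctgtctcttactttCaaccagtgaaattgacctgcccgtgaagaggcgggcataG
MTRNR2L1: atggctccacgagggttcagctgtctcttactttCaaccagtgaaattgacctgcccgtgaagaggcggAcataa
MTRNR2L6: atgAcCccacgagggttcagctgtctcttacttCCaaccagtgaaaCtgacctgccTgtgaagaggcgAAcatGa
MTRNR2L3: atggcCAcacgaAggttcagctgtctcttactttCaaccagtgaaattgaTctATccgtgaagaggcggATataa
MTRNR2L10: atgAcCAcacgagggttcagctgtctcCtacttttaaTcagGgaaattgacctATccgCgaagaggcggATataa
The frame of 75 bases differs from MT-RNR2 at 2 bases in MTRNR2L8 and MTRNR2L1, at 9 in MTRNR2L6 and MTRNR2L3 and at 11 in MTRNR2L10. Over the whole transcript, the longest run shared letter for letter with MT-RNR2 was 88 bases in MTRNR2L8, 62 in MTRNR2L10, 60 in MTRNR2L1, 55 in MTRNR2L6 and 45 in MTRNR2L3, but only 35 in MTRNR2L4 and 33 in MTRNR2L5. Reads were 51 bases long, and the tables used here hold no row for MT-RNR2. For MTRNR2L8, MTRNR2L10, MTRNR2L1 and MTRNR2L6, whose shared runs are longer than a read, reads from those runs cannot be told apart from mitochondrial ribosomal RNA. For the members with shorter runs, how far such reads entered their counts was not tested.

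The family's counts moved with the mitochondrial counts. There were 145 to 225 MTRNR2L counts per 1000 mitochondrial counts in high-share cells, with a median of 179, against 147 to 283.4 in low-share cells, with a median of 208. The share itself spanned from 32.2% to 0.292% over the same cells. MTRNR2L counts stayed in the nuclear totals and reached 80672 CPM in cell 61. With them left out, 2239 genes were higher and 1318 lower. Of the 17599 nuclear genes matched to a transcript, 9 shared any 25-base word with mitochondrially encoded RNA. Of these, 7 passed 10 CPM, and all 7 were MTRNR2L genes. The other family member at 10 CPM or more, MTRNR2L2, had no matched transcript, so its sequence was not compared. It summed to 8559 CPM in high-share and 2899 CPM in low-share cells, more than MTRNR2L8 at 8227 and 2657 CPM.

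**Figure D5:**
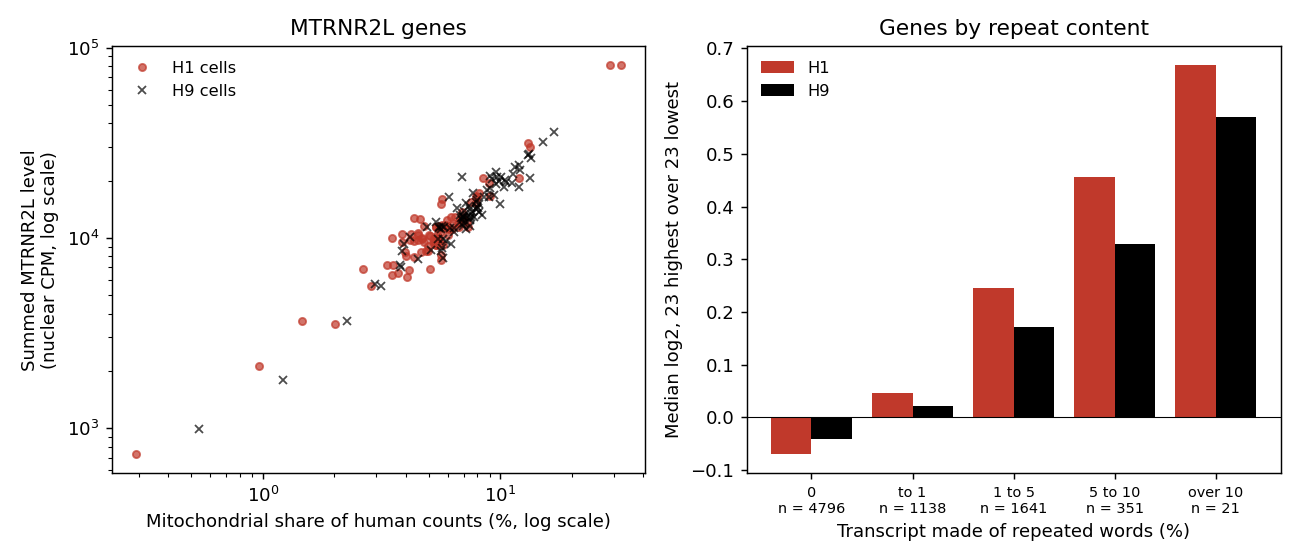
Left, summed level of the MTRNR2L genes (nuclear CPM) against the mitochondrial share (%) in each H1 cell (red circles) and H9 cell (black crosses), both axes on log scales. Right, median log2 ratio of high-share over low-share cells for genes grouped by the part of their transcript made of repeated 25-base words, for H1 (red) and H9 (black), where the H1 median goes up from -0.07 with no such word to 0.67 over 10%.

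Outside this family, the genes most closely tied to the share were of another kind. The 12 with the highest rho at 50 CPM or more, picked after values had been seen, were ORAI2, ARGFX, LOC646851, PDDC1, SPN, NLRP12, REXO1L1, C21orf62, SCD5, NMNAT1, CCL5 and CCDC142, with rho of 0.51 to 0.59. ORAI2, a calcium channel subunit, had 105, 237 and 419 CPM in high-share cells, against 39.5, 140 and 244 CPM in low-share cells, log2 ratios of 0.94 in H1 and 0.77 in H9. CCL5, a chemokine known from T cells, had 17.7, 67.5 and 141 CPM in high-share cells, against 9.23, 27.97 and 70.8 CPM in low-share cells, log2 ratios of 1.05 in H1 and 1.02 in H9. All 12 were read in 23 of 23 cells of both sets, all had log2 ratios of at least 0.62 (SCD5 in H9) in both lines, and except for LOC646851 no cell gave more than 14.4% of a high-share sum.

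Several of their transcripts hold sequence that recurs across the genome. For each gene, the part of the longest transcript was measured that consists of 25-base words held by at least 20 genes on either strand. It was 8.70% for ORAI2, 18.9% for CCL5, 11.4% for NMNAT1, 7.42% for CCDC142 and 7.21% for SPN. Lower values were found for SCD5 at 4.42%, NLRP12 at 3.23%, ARGFX at 0.310% and C21orf62 at 0%. PDDC1 and LOC646851 had no matched transcript, and no value was available for REXO1L1. The origin of these words was not determined.

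Over 7947 matched genes at 10 CPM or more in both lines, with the MTRNR2L family left out, the ratio went up with this repeat content. The median log2 ratio was -0.07 in 4796 genes with none, 0.05 at up to 1%, 0.25 at 1% to 5%, 0.46 in 351 genes at 5% to 10%, and 0.67 in 21 genes above 10%. In H9 the medians were -0.04, 0.02, 0.17, 0.33 and 0.57 in the same groups. Of genes at 5% to 10%, 43.02% were called higher and 4.56% lower in high-share H1 cells, against 17.2% and 17.2% of genes with none. Without the 4 cells the H1 medians were -0.05, 0.00, 0.18, 0.41 and 0.53. With words counted from 50 genes up, they were -0.07, 0.11, 0.28, 0.50 and, in only 3 genes, 1.10.

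The trend with repeat content was found among genes of low and middle level. For genes above 5% it was 0.79 at up to 20 CPM, 0.62 at 20 to 50 CPM and 0.37 at 50 to 200 CPM, and it was -0.12 in 29 genes above 200 CPM, where genes with none had -0.14. It was present at each transcript length up to 8000 bases, with medians of 0.48, 0.49 and 0.54 in the 3 length groups, against -0.14, -0.01 and 0.06 for genes with none, and was 0.31 against 0.18 in 37 longer genes. Longer transcripts also had higher ratios, from -0.15 up to 1500 bases to 0.20 above 8000 bases. GC content gave no such order, with medians between -0.03 and 0.06.

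In single cells, the 372 genes above 5% summed to 25937, 34510 and 42809 CPM (lowest, median, highest) in high-share cells, against 25360, 30933 and 35329 CPM in low-share cells, so the ranges overlapped. Their summed level had a rho of 0.44 with the share in H1 and of 0.42 in H9. It also moved with other measures of the H1 cells, with a rho of 0.50 with nuclear counts per spike-in count, -0.40 with nuclear counts and 0.63 with genes read. Their part in the result was not tested. Reads from such repeats can match several genes, and the annotation used for counting is not given in the sources used here, so the values of these genes are uncertain.

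The set of H9 cells, picked by the same rule, shared no cell with H1 and served as the nearest comparison. Its 23 high-share cells had 9.21% to 16.8% and its 23 low-share cells 0.539% to 5.73%. In H9, 1664 of 9199 genes (18.1%) were called higher and 1204 (13.1%) lower. Among 8542 genes at 10 CPM or more in both lines, 670 were called higher in both, which is 35.5% of the 1885 H1 genes and 46.95% of the 1427 H9 genes, while 16.7% of all 8542 genes were called higher in H9. Called lower in both were 260, which is 21.8% of the 1190 H1 genes and 25.6% of the 1016 H9 genes, against 11.9% of all. Of the H1 genes called higher, 10.9% were called lower in H9.

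Under the stricter H1 rule, with the MTRNR2L family left out, 79 of 270 higher genes (29.3%) were called higher and 17 (6.30%) lower in H9, against 8.68% and 7.45% of genes at 50 CPM or more. For the 154 lower genes, 24 (15.6%) were called lower and 14 (9.09%) higher in H9. Of the 246 of these higher genes with a transcript, 44 (17.9%) had a repeat content above 5%, against 0 of 145 lower genes and 4.78% of all genes at 50 CPM or more. AASS was an abundant gene higher in both lines, chosen after its values were seen. It had 325, 1834 and 10640 CPM in high-share cells, against 65.4, 976 and 2806 CPM in low-share cells, with log2 ratios of 1.22 in H1, 0.81 without the 4 cells and 0.99 in H9.

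Among genes at 50 CPM or more, those with the lowest rho against the share differed widely in level and varied between cells. CDC26 was the least abundant of them, with summed levels of 38.9 CPM in high-share and 80.91 CPM in low-share cells. MORF4L1, a chromatin protein, had 544, 1355 and 2134 CPM in high-share cells, against 1187, 1741 and 2677 CPM in low-share cells, with a rho of -0.48. BZW1, a translation regulator, had 218, 1043 and 1970.2 CPM in high-share cells, against 704, 1580.1 and 2365 CPM in low-share cells, with a rho of -0.46. VDAC2, a channel of the outer mitochondrial membrane, had 32.1, 380 and 567 CPM in high-share cells, against 268.9, 532 and 944 CPM in low-share cells, with a rho of -0.41. HNRNPK, CDC26 and BCL10 completed the 6, at -0.43, -0.42 and -0.41. In H9 their rho values lay between -0.26 for BCL10 and -0.03 for BZW1.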

How the data were processed

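The deposited tables hold RSEM expected counts per gene. Per the submitters' processing notes, the authors used CASAVA 1.8.2, Bowtie 0.12.8 and RSEM 1.2.3 on hg19; the annotation and strand setting are not given in the sources used here. Values were used as deposited, and rounded only to decide whether a gene was read. The single-cell tables hold 19084 nuclear, 13 mitochondrial and 92 spike-in rows. Human counts per H1 cell ranged from 1136300 to 8096760.

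Cells were split by the mitochondrial share of human counts. Nuclear CPM left mitochondrial and spike-in rows out of the totals. Sets were compared by summed counts, called at 1.5-fold and a minimum of 10 CPM, with a floor of 3 counts per set for a sum of 0. Counting intervals are exact Poisson ones at 95%. No test was possible, since each set is 1 sample. Transcripts are of GENCODE 29, matched for 92.2% of nuclear genes by symbol; no coordinates are given, as its build is not that of the files.

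The cells, the 30 gene lists and the comparisons were chosen with earlier results of these data known. Genes named were up to 15 each way under the stricter rule, up to 4 per list by size of ratio, the 6 highest and lowest by rho among genes at 50 CPM or more, all mitochondrial rows, POU5F1, NANOG and SOX2. Added after seeing the data were the repeat content, shared words, the H9 repeat of the rule, the cells beyond 1% and 20%, sums of lists per cell, and the 12 further genes by rho. The ratio was tested on simulated data first, with limits to pass set only where counting error was the sole noise. Simulations with the spread of the cells were run without such limits. Tools were Python 3.11.15, numpy 2.4.6, pandas 2.3.3, scipy 1.17.1, matplotlib 3.10.9, R 4.3.3 and edgeR 4.0.16 (TMM factors only). A few items are not reported here.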

Additional observations from a re-analysis of the deposited data

How the results depend on the processing

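No paired analysis was possible because the 2 sets are different cells of 1 chip and no test was run. The counts of 2147 higher and 1371 lower genes stayed within 1.5 times under most alternatives. They moved further to 1341 higher and 2358 lower with median-of-ratios size factors, to 3822 and 2382 at a minimum of 1 CPM, to 699 and 488 at a minimum of 50 CPM, to 1047 and 619 with 46 against 46 cells, and to 934 and 594 at 2-fold. With 12 against 12 cells the lower count moved to 2280, beside 2870 higher. The cause was not tested. Without the 4 cells beyond the limits and the other cells kept there were 1737 higher and 1210 lower genes, with each gene's highest cell left out of each set 1874 and 966, and at 96 per lane 2217 and 1412. The median log2 ratio of all genes shifted by more than 0.1 with both scalings (from 0.04 to -0.08 and -0.22), and the medians of core pluripotency, biogenesis regulators, early lineage and Nodal genes changed sign with them.

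In H1, the ratios of nuclear and mitochondrial counts per spike-in count and of genes read kept their direction under every alternative run. They were 1.15 to 1.19, 2.31 to 2.65 and 1.03 to 1.04. Among list medians 354 alternatives stayed within 1.5-fold and 5 moved, 3 of them of the MTRNR2L genes. Among named genes 1777 values stayed within 1.5-fold of the main ratio, 198 moved further and 11 reversed. The 11 reversed values were as follows. Without the 4 cells, chosen anew, EGR1 became -0.0038 and FASTK 0.23. With the other cells kept, EGR1 became -0.16 and PDK1 -0.15. Without the highest cell, HSPA4L became -0.48, SMAD7 0.037 and SRXN1 0.24. With 46 against 46 cells, NFE2L2 became 0.0052 and PFKFB4 -0.084. With 12 against 12, EGLN1 became -0.21 and SMAD7 1.00. Depth limits genes near 10 CPM, and the number of cells limits genes whose counts come mostly from a few cells.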
